A study of Mus musculus with 27 samples.

Results

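The S100 and annexin genes described here were 10 of the 54532 genes measured in mouse tibialis anterior muscle. They were 6 S100 genes, S100a4, S100a6, S100a8, S100a9, S100a10 and S100a11, and 4 annexin genes, Anxa1, Anxa2, Anxa3 and Anxa5. The members were chosen from these families with earlier measured values of the same samples known, so their levels and changes are given as a description: a call of a member below says on which side of the threshold used for all genes it fell, and no p is given for a member. All 10 members passed the filter on low values (0.5 FPKM or more in 5 or more samples) and were among the 14630 genes carried into the comparisons. FPKM is the number of fragments per kilobase of gene over a denominator for each sample, so levels of different genes are compared per length.

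Volumetric muscle loss was made in 8-week-old male C57BL/6 mice by excision of 40% of the tibialis anterior muscle, and RNA of the whole muscle was sequenced in bulk. The groups were uninjured muscle (n = 5) and injured muscle at day 3 (n = 5), day 7 (n = 6), day 14 (n = 6) and day 21 (n = 5) after excision, 27 samples in all. Whether 1 or both legs of a mouse were injured differs between the records of the study, and the labels do not say which samples, if any, share a mouse.

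S100 proteins are small calcium-binding proteins with a pair of EF hands, and annexins are larger proteins that bind acidic phospholipids when calcium rises. Several S100 proteins pair with a particular annexin and link membranes to the actin cytoskeleton, whereas S100A8 and S100A9 form calprotectin, which neutrophils and monocytes hold in their cytosol and release as a danger signal. In muscle, annexins gather at tears of the fibre membrane, and several S100 proteins and annexins are abundant in the immune cells and fibroblasts that enter an injury.

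The depth, as reads recovered per sample, was 14376395 to 24436763. Over all 14630 genes, 9 of the 27 libraries had a smaller distance to the mean of a group that is not theirs than to the mean of their own group taken without them. These were day 3 replicate 5 (nearest to day 7), day 7 replicates 3 (uninjured), 5 (day 3) and 6 (day 21), day 14 replicates 1 (day 7), 3 and 6 (both day 21), and day 21 replicates 3 and 5 (both day 14). The labels were kept, and whether any of these samples were exchanged was not tested. As root mean square distance on the log2 scale, day 3 replicate 5, at 0.515 from its own group and 0.390 from day 7, and day 7 replicate 5, at 0.679 from its own group and 0.359 from day 3, lay nearest to the group of the other and are the pair of libraries that stand apart below. Day 7 replicate 6, at 0.647 from its own group and 0.516 from day 21, and the other 6 are not among them. Changes of the members at day 3 and day 7 are given with and without that pair. Day 7 replicate 5 had the highest level at day 7 of 10 of the 10 members, and day 3 replicate 5 had the lowest level at day 3 of 7 of the 10. The denominators of the deposited FPKM were 0.747 to 1.48 times the total of reads of the sample and put the median change of all genes near 0, and when FPKM was instead rescaled to a common sum per sample that median on the log2 scale moved to 0.51 (day 3), 0.48 (day 7), 0.29 (day 14) and 0.12 (day 21). With FPKM computed on the own total of reads of each sample it was 0.41, 0.36, 0.25 and 0.12, and for day 21 against day 3 the shifts were -0.41 and -0.31. Changes below are relative to the deposited scale.

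Each time point was compared with uninjured muscle to see how far the muscle stood from its intact state, and day 21 with day 3 to see how far the early change had come down. The 4 comparisons with uninjured muscle share the same 5 control samples. A gene was called when its adjusted p from limma, over all genes tested, was below 0.05. Unless an alternative is named, log2 fold changes are differences of log2(FPKM + 1). For genes near or below 1 FPKM they are smaller than the log2 ratio of FPKM. At day 3, 10 of the 10 members were called higher, where 23.4% of all genes tested were called higher and 19.8% lower. At day 7, 8 of the 10 members were called higher, all but S100a9 and Anxa3, where 15% of genes were called higher and 14.4% lower. At day 14, 5 members were called higher (S100a6, S100a10, S100a11, Anxa1 and Anxa2), where 9.02% of genes were called higher and 11.3% lower. At day 21, 2 members were called higher (S100a10 and Anxa1), where 1.74% of genes were called higher and 1.69% lower. At day 21 against day 3, 9 members were called lower, all but Anxa3, where 16.2% of genes were called lower and 9.23% higher. Since the members were chosen with these comparisons known, nothing is read from these counts against the percentages.

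The median log2 fold change of the 10 members was 2.35 (day 3), 1.43 (day 7), 0.99 (day 14) and 0.67 (day 21), beside medians of all genes tested of 0.01, 0.03, 0.02 and 0.01. Without both libraries that stand apart it was 2.42 at day 3 and 1.13 at day 7, with 10 and 8 members called higher, where 23.4% and 12.5% of genes were called higher and 19.7% and 11.1% lower. The summed FPKM of the members had a median of 184 in uninjured muscle, 1021 (day 3), 425 (day 7), 393 (day 14) and 284 (day 21) after injury. The lowest sum at day 3, 692 in replicate 5, was above the highest in uninjured muscle, 196, and the sums of the other times were 290.4 to 1337 (day 7), 257 to 577 (day 14) and 255 to 373 (day 21). Every injured sample therefore had a higher sum than every uninjured sample. Without both libraries the sums were 898 to 1208 at day 3 and 290.4 to 514 at day 7, with medians of 1099.7 and 398. In bulk RNA, more cells that express a gene and more RNA of it per cell cannot be told apart.

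The calprotectin genes S100a8 and S100a9 had, beside S100a4, the lowest levels of the 10 members in uninjured muscle. S100a8 was at 1.62, 0.670, 0.982, 0.468 and 0.0984 FPKM in the 5 uninjured samples and at 6.77, 14.2, 8.41, 21.0 and 13.3 FPKM in the 5 day 3 samples. At day 7 its lowest, median and highest FPKM were 0.423, 11.3 and 45.9, at day 14 they were 1.296, 2.90 and 4.16, and the day 21 samples were at 1.96, 1.41, 0.859, 0 and 0. All 5 day 3 samples lay above the uninjured range, whereas at day 7 replicates 1, 2, 4 and 5 were high and replicates 3 and 6 lay within it. S100a8 rose by a log2 fold change of 2.92 ± 0.60 (standard error) at day 3 and 2.33 ± 0.57 at day 7, and by 2.88 and 1.84 without both libraries that stand apart. Its size depended on the scale, with 4.24 and 3.85 with limma's voom weights. It was at 1.07 ± 0.57 at day 14, not called unless the fit held those 2 groups alone, and at -0.02 ± 0.60 at day 21, not called, where its sign changed between alternatives (-0.62 to 0.19).

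S100a9 was at 2.16, 1.11, 2.12, 2.65 and 0.131 FPKM in uninjured muscle and at 7.99, 11.5, 10.3, 11.4 and 9.99 FPKM at day 3. Its lowest, median and highest FPKM were 1.01, 3.97 and 41.6 at day 7 and 0, 2.16 and 7.93 at day 14, and the day 21 samples were at 1.14, 0.863, 0.457, 2.29 and 0. The day 3 samples were close to each other and all above the uninjured range. At day 7 replicates 1, 2, 5 and 6 lay above that range, replicate 5 far above the others, and replicates 3 and 4 lay within it. No day 21 sample was above the highest uninjured sample. S100a9 rose by a log2 fold change of 2.20 ± 0.58 at day 3, also 2.20 without both libraries. At day 7 it was at 1.27 ± 0.56 and not called, with 0.70 without both libraries, and it was called without day 7 replicate 3 (1.58), on the common-sum scale (1.79) and on own totals of reads (1.65). With voom weights S100a9 was at 3.06 at day 3 and 2.26 at day 7. At day 14 and day 21 it was at 0.32 ± 0.56 and -0.43 ± 0.58, not called. The reads behind these values were few: 1 to 15 per uninjured sample for S100a8 and 1 to 17 for S100a9, against 98 to 332 and 87 to 142 at day 3.

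S100a4, a partner of non-muscle myosin and a marker often used for fibroblasts and motile cells, was at 0 in 4 of the 5 uninjured samples and at 0.730 FPKM in replicate 3. The day 3 samples were at 3.94, 4.08, 3.504, 2.93 and 2.01 FPKM. Lowest, median and highest FPKM came to 0, 1.31 and 5.90 at day 7 and 0.0770, 0.663 and 2.25 at day 14, and the day 21 samples were at 0.406, 1.54, 0.919, 0 and 0.614. The day 3 samples did not overlap the uninjured samples, and each later group had samples within the uninjured range. S100a4 rose by a log2 fold change of 1.92 ± 0.35 at day 3 and 1.14 ± 0.33 at day 7 (2.04 and 0.84 without both libraries), and was at 0.62 ± 0.33 and 0.54 ± 0.35 at day 14 and day 21, not called. The call at day 7 was lost when the fit held those 2 groups alone (1.14), and day 14 was called with a pseudocount of 0.1 (2.20). With so many values at 0 the size of this change depends on the scale, and with voom weights it was 5.03 at day 3 and 3.71 at day 7. Its level is uncertain, since 302 of its 584 exon bases (51.7%) are shared with the overlapping gene Gm42674, which was at 0 in all 27 samples, and reads in shared bases may not have been assigned.

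S100a6, or calcyclin, which binds the ubiquitin ligase adaptor CACYBP and annexins, was abundant before injury, at 56.8, 55.5, 71.2, 45.2 and 42.9 FPKM. It was at 217, 269, 282, 273 and 168 FPKM at day 3. Its lowest, median and highest FPKM were 64.6, 109 and 311 at day 7 and 53.2, 119 and 146 at day 14, and the day 21 samples were at 75.4, 99.2, 96.7, 80.1 and 132. Every day 3 and day 21 sample lay above the uninjured range, as did 5 of the 6 day 7 samples and 4 of the 6 day 14 samples. S100a6 rose by a log2 fold change of 2.13 ± 0.31 at day 3, 1.18 ± 0.29 at day 7 (2.26 and 0.91 without both libraries) and 0.91 ± 0.29 at day 14, and was at 0.81 ± 0.31 at day 21, not called. The call at day 14 was lost without uninjured replicate 4 (0.85) or 5 (0.83), without day 14 replicate 4 (0.805), 5 (0.82) or 6 (0.83), or with no filter on low values (0.91). Day 21 was called with only the 2 groups compared (0.81).

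S100a10 and Anxa2 encode the light and the heavy chain of a heterotetramer at the inner face of the plasma membrane, which at the cell surface binds plasminogen and its activator. S100a10 was at 23.9, 29.9, 23.4, 17.96 and 20.7 FPKM in uninjured muscle and at 115, 118, 166, 178 and 112 FPKM at day 3. From lowest to median to highest, FPKM ran through 35.6, 64.7 and 163 at day 7 and 40.4, 63.6 and 87.2 at day 14, and the day 21 samples were at 41.9, 57.3, 43.4, 37.1 and 62.2. All 22 injured samples lay above the highest uninjured sample. S100a10 rose by a log2 fold change of 2.51 ± 0.28 at day 3, 1.58 ± 0.27 at day 7 (2.58 and 1.34 without both libraries), 1.35 ± 0.27 at day 14 and 1.02 ± 0.28 at day 21. The call at day 21 was lost without uninjured replicate 1 (1.04), 3 (1.03), 4 (0.94) or 5 (0.99), without day 21 replicate 1 (1.07), 2 (0.955) or 5 (0.93), with no filter on low values (1.02), and under both other scalings of FPKM (both 1.20).

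Anxa2 was at 10.2, 12.9, 13.1, 11.5 and 10.3 FPKM in uninjured muscle and at 88.7, 106, 127, 123 and 60.1 FPKM at day 3. Its lowest, median and highest FPKM were 26.3, 32.7 and 144 at day 7 and 19.5, 29.4 and 41.3 at day 14, and the day 21 samples were at 18.1, 25.7, 20.52, 21.0 and 21.2. As for S100a10, all 22 injured samples lay above the uninjured range, and day 7 replicate 5, at 144, was above all 5 day 3 samples. Anxa2 rose by a log2 fold change of 2.97 ± 0.30 at day 3, 1.76 ± 0.29 at day 7 (3.15 and 1.41 without both libraries) and 1.26 ± 0.29 at day 14. At day 21 it was at 0.82 ± 0.30, not called, and it was called at the same size (0.82) without day 7 replicate 5 and with only the 2 groups compared. Of its exon bases 2.63% are shared with the overlapping gene Gm16144.

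S100a11 and Anxa1 encode another pair, in which S100A11 binds the amino end of annexin A1. Anxa1 is known as a mediator of the glucocorticoid response that limits neutrophil entry and as a factor in membrane repair. S100a11 was at 56.9, 41.0, 41.7, 42.8 and 39.6 FPKM in uninjured muscle and at 309, 349, 379, 406 and 227 FPKM at day 3, the highest median level of the 10 members at that time. Lowest, median and highest FPKM came to 81.3, 133 and 412 at day 7 and 78.7, 118 and 229 at day 14, and the day 21 samples were at 83.6, 104, 73.9, 72.7 and 106. All 22 injured samples lay above the highest uninjured sample, replicate 1. S100a11 rose by a log2 fold change of 2.87 ± 0.32 at day 3, 1.74 ± 0.31 at day 7 (3.00 and 1.45 without both libraries) and 1.46 ± 0.31 at day 14. It was at 0.96 ± 0.32 at day 21, not called, and it was called at the same size (0.96) without day 7 replicate 5 and with only the 2 groups compared, and with a replicate block by letter, which takes samples of the same label letter as a set (1.02).

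Anxa1 was at 4.40, 4.68, 3.37, 3.30 and 3.33 FPKM in uninjured muscle and at 36.7, 26.96, 58.2, 48.4 and 24.2 FPKM at day 3, so that the mean at day 3 was 10.2 times the uninjured mean. Its lowest, median and highest FPKM were 14.3, 17.8 and 55.5 at day 7 and 9.17, 15.2 and 18.3 at day 14, and the day 21 samples were at 10.3, 14.2, 9.56, 5.84 and 9.07. No injured sample overlapped the uninjured range, and the lowest of the 22 was day 21 replicate 4. Anxa1 rose by a log2 fold change of 2.99 ± 0.29 at day 3, 2.18 ± 0.28 at day 7 (3.13 and 1.90 without both libraries), 1.63 ± 0.28 at day 14 and 1.13 ± 0.29 at day 21. The call at day 21 was lost without uninjured replicate 3 (1.10), 4 (1.09) or 5 (1.09), without day 21 replicate 1 (1.10), 2 (0.99) or 5 (1.14), with no filter on low values (1.13), under both other scalings (1.25 and 1.26) and with voom weights (1.30).

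Anxa5, which binds phosphatidylserine exposed on damaged or dying cells and forms lattices on torn membrane, was at 29.999, 33.0, 34.5, 32.2 and 25.9 FPKM in uninjured muscle. At day 3 it was at 103, 112, 132, 135 and 64.8 FPKM. From lowest to median to highest, FPKM ran through 34.4, 42.9 and 145 at day 7 and 26.7, 34.9 and 40.7 at day 14, and the day 21 samples were at 33.7, 35.0, 31.3, 29.8 and 29.5. The day 3 samples were all above the uninjured range, 5 of the 6 day 7 samples were above it, and the day 14 and day 21 groups overlapped it. Anxa5 rose by a log2 fold change of 1.74 ± 0.26 at day 3 and 0.76 ± 0.25 at day 7, and by 1.92 and 0.47 without both libraries. The call at day 7 was lost without uninjured replicate 5 (0.695) and with only the 2 groups in the fit (0.76). At day 14 and day 21 it was at 0.12 ± 0.25 and 0.04 ± 0.26, not called, and without uninjured replicate 5 its sign at day 21 turned (-0.03).

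Anxa3, found in neutrophils, endothelium and epithelia, moved least of the 10 members at day 3. It was at 6.06, 5.47, 5.22, 6.71 and 5.83 FPKM in uninjured muscle and at 9.10, 10.6, 11.6, 8.95 and 10.8 FPKM at day 3. Its lowest, median and highest FPKM were 5.23, 6.39 and 13.6 at day 7 and 4.78, 7.18 and 12.1 at day 14, and the day 21 samples were at 6.52, 9.81, 6.17, 6.50 and 13.03. The day 3 samples lay above the uninjured samples, and each later group overlapped both of them. Anxa3 rose by a log2 fold change of 0.71 ± 0.23 at day 3 (0.69 without both libraries) and was at 0.29 ± 0.22, 0.31 ± 0.22 and 0.41 ± 0.23 at day 7, day 14 and day 21, not called. At day 7 it was at 0.13 without day 7 replicate 5 and without both libraries, and it was called with FPKM rescaled to a common sum (0.92) or on each sample's own total of reads (0.77), and 3.07% of its exon bases are shared with Gm42603.

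**Figure D1:**
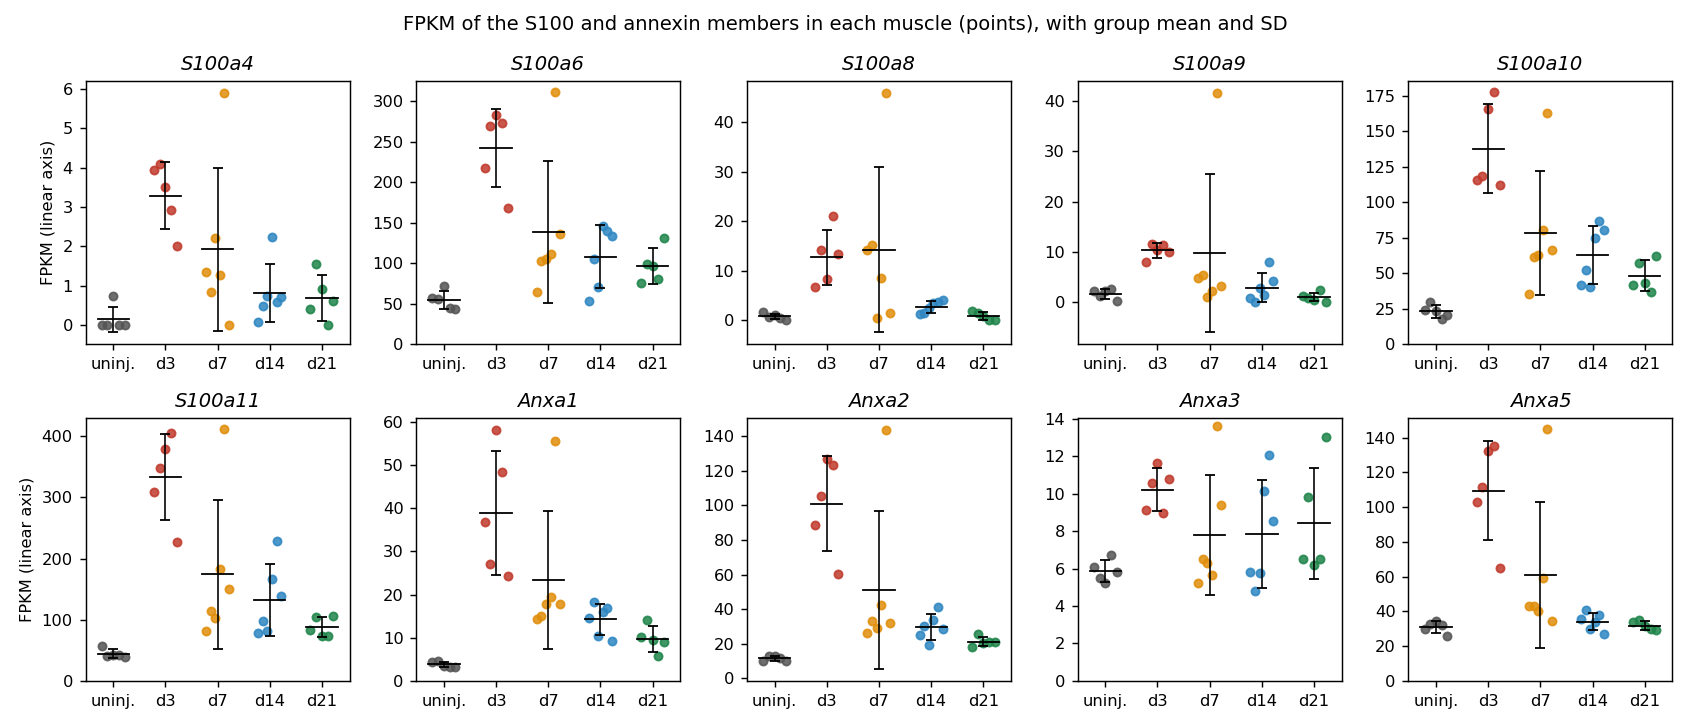
FPKM of the 10 members in each muscle (points, linear axis from uninjured to day 21), with the group mean and SD. All day 3 points lie above the uninjured points in each of the 10 panels, and the highest day 7 point in each panel is replicate 5.

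The order of the group means was day 3, day 7, day 14, day 21 and uninjured, from high to low, for 7 of the 10 members: S100a4, S100a6, S100a10, S100a11, Anxa1, Anxa2 and Anxa5. For S100a8 the day 7 mean, 14.3 ± 16.7 FPKM (SD, n = 6), was above that of day 3, 12.7 ± 5.59 FPKM (SD, n = 5), which is within their spread. For S100a9 the uninjured mean, 1.63 ± 1.01 FPKM (SD, n = 5), was above that of day 21, 0.950 ± 0.865 FPKM (SD, n = 5), also within their spread. For Anxa3 the order was day 3, day 21, day 14, day 7 and uninjured, and the means of the last 3 injured groups lay between 7.78 and 8.41 FPKM, closer than their SD. The ranges of day 7 and day 14, and of day 14 and day 21, overlapped for each of the 10 members. The ranges of day 3 and day 7 overlapped for each of the 10 too, but without day 7 replicate 5 they did so for S100a4, S100a8 and Anxa3 alone. This overlap of day 3 with day 7 is given for the members only, without a share over all genes, and nothing is read from it. The day 21 and uninjured ranges overlapped for S100a4, S100a8, S100a9, Anxa3 and Anxa5.

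The same values can be counted by groups that do not overlap, which gives other numbers than the calls. Every day 3 sample was above the highest uninjured sample in 10 of the 10 members, as in 19.8% of all genes tested. At day 7 and day 14 this held for the same number of members, 4 of the 10 (S100a10, S100a11, Anxa1 and Anxa2), as in 7.25% and 7.67% of genes. At day 21 it held for 5 of the 10, those 4 and S100a6, as in 5.26% of genes. From day 3 to day 21 the called members fell by 1.32 (S100a6) to 2.94 (S100a8) on the log2 scale, and Anxa2, S100a11, Anxa1, Anxa5, S100a10 and S100a4 fell by 2.15, 1.90, 1.86, 1.71, 1.49 and 1.38. S100a9 fell by 2.63, and Anxa3 was at -0.30 ± 0.23, not called unless FPKM was rescaled to a common sum (-0.88) or to each sample's own total of reads (-0.73). These are changes of log2(FPKM + 1), and the added 1 shrinks those of S100a4, S100a8 and S100a9 most. The sizes therefore do not rank the members by their fall in FPKM.

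The ratio of partner genes within a muscle takes the scaling between samples out of the comparison. S100a8 to S100a9 had ratios of FPKM of 0.752, 0.602, 0.463, 0.177 and 0.752 in uninjured muscle and 0.847, 1.24, 0.816, 1.84 and 1.33 at day 3. At day 7 the lowest, median and highest ratio were 0.418, 1.98 and 3.85. The day 3 ratios lay above the uninjured ones, and those of day 7 spanned both. The highest uninjured ratios, 0.752, rest on 15 reads of each gene in replicate 1 and 1 read of each in replicate 5, so the distance to the lowest day 3 ratio, 0.816, is within a few reads. At day 14 the ratio was 0.456 to 2.36 in the 5 samples with S100a9 above 0. At day 21 it was 1.63 to 1.88 in the 3 samples with both genes above 0, which had 4 to 10 reads of S100a9, whereas replicate 4 had S100a8 at 0 and S100a9 at 2.29 FPKM, and replicate 5 had both at 0.

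S100a10 to Anxa2 had ratios of 2.34, 2.33, 1.79, 1.56 and 2.01 in uninjured muscle and 1.302, 1.12, 1.31, 1.44 and 1.87 at day 3. Apart from day 3 replicate 5, at 1.87, the day 3 ratios lay below the lowest uninjured ratio. At day 7 the lowest, median and highest ratio were 1.13, 1.88 and 2.18, with the lowest in replicate 5, and the day 14 and day 21 medians were 2.09 and 2.23, within the uninjured range. S100a11 to Anxa1 had a median ratio of 12.4 in uninjured muscle, and 8.41 (day 3), 7.51 (day 7), 9.21 (day 14) and 8.14 (day 21) after injury. The uninjured ratios, 8.77 to 12.95, overlapped those of each injured group.

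**Figure D2:**
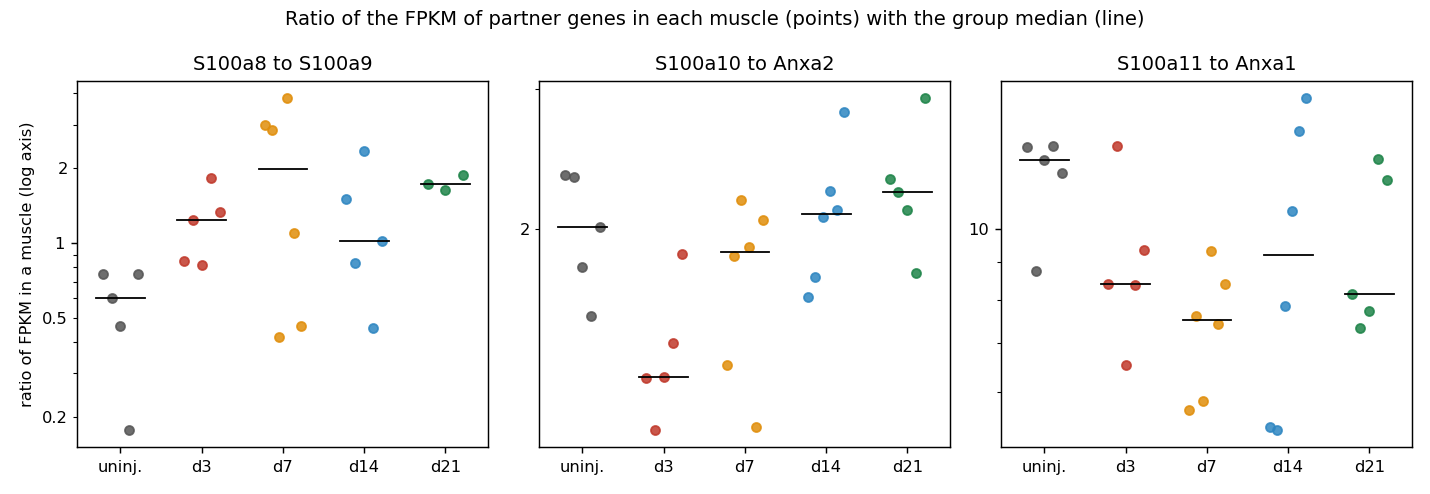
Ratio of the FPKM of 3 pairs of genes in each muscle (points, log axis) with the group median (line). The day 3 medians are 1.24 for S100a8 to S100a9, 1.31 for S100a10 to Anxa2 and 8.41 for S100a11 to Anxa1, against 0.602, 2.01 and 12.4 in uninjured muscle.

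Among themselves the members fell into closer and looser pairs when each gene's log2 values were standardised over the 27 samples and compared by their root mean square distance. S100a10 and S100a11 were nearest to each other at 0.218, Anxa2 was 0.254 from S100a11, S100a6 was 0.287 from S100a10, and Anxa1 was 0.309 from Anxa2. S100a8 and S100a9 were nearest to each other at 0.558. Anxa5 was 0.396 and S100a4 0.536 from Anxa2, and Anxa3 was farthest from its nearest member, 0.685 from S100a6. The median distance of a member to all genes tested was 1.38 to 1.42.

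Outside the members, the genes with the profile most like Anxa2 were Tubb5 (0.183) and Emp3 (0.203), and those most like Anxa5 were Tlr13 (0.181) and C3ar1 (0.200), which encode a receptor for microbial RNA and the receptor for complement C3a. Anxa1 was nearest to Vim (0.286), the intermediate filament of mesenchymal cells, and Ecm1 (0.290). S100a11 was nearest to Tmem176a (0.257) and Cfl1 (0.261), S100a10 to Il3ra (0.310) and Tmsb10 (0.316), and S100a6 to Sh3bgrl3 (0.318) and Emp3 (0.337). S100a8 was nearest to Tnfrsf1a (0.433) and Emilin1 (0.445), S100a9 to Cdca2 (0.518) and Incenp (0.521), S100a4 to Emp3 (0.468) and Serp1 (0.473), and Anxa3 to Srsf7 (0.560) and Psmb10 (0.592). These distances are over 27 samples and carry no test.

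By position, the 6 S100 members lie on chromosome 3 in build GRCm38. S100a4 (ENSMUSG00000001020, chr3:90603771-90606045), S100a6 (ENSMUSG00000001025, chr3:90612882-90624181), S100a8 (ENSMUSG00000056054, chr3:90668978-90670035) and S100a9 (ENSMUSG00000056071, chr3:90692632-90695721) stand within the S100 gene cluster. S100a11 (ENSMUSG00000027907, chr3:93520488-93526287) and S100a10 (ENSMUSG00000041959, chr3:93555080-93564643) are neighbours farther along the chromosome. Anxa5 (ENSMUSG00000027712, chr3:36448923-36475894) is on chromosome 3 too, and Anxa1 (ENSMUSG00000024659, chr19:20373428-20390944), Anxa2 (ENSMUSG00000032231, chr9:69453620-69491795) and Anxa3 (ENSMUSG00000029484, chr5:96793339-96845966) are elsewhere. Neighbours in the cluster did not all move together. S100a5, which lies between S100a4 and S100a6, was at 0 to 1.08 FPKM in uninjured muscle and had a log2 fold change of -0.08 ± 0.23 at day 3 (adjusted p = 0.822, limma), below the highest uninjured sample in 5 of 5 samples.

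The other S100 and annexin genes were a list of 20, of which 19 were in the table and 11 were tested. S100g, S100z and Anxa10 were at 0 in all 27 samples. At day 3, 6 of the 11 were called higher and 1 lower, and the 6 were S100a13, Anxa4, Anxa6, Anxa7, Anxa8 and Anxa9. Anxa4, which binds membranes in epithelia and takes part in their repair, was at 1.34, 1.58, 1.505, 2.33 and 1.72 FPKM in uninjured muscle and at 9.45, 7.90, 11.8, 15.2 and 6.92 FPKM at day 3. It was above the uninjured range in 5 of 5 samples, with a log2 fold change of 2.02 ± 0.27 (adjusted p = 3.29e-06). Anxa8 rose by 1.11 ± 0.27 (adjusted p = 0.00193, above the uninjured range in 5 of 5 samples), Anxa7 by 0.72 ± 0.16 (0.000784, 5 of 5) and S100a13 by 0.87 ± 0.24 (0.00394, 5 of 5). Anxa6, the annexin with the highest uninjured level of all listed, at 74.8 ± 6.01 FPKM (SD, n = 5), rose by 0.47 ± 0.15 (adjusted p = 0.011, 4 of 5 samples above the uninjured range), and Anxa9 rose by 0.63 ± 0.20 (0.0128, 5 of 5). Anxa8 and Anxa9 were below 0.5 FPKM in all 5 uninjured samples, so they passed the filter through injured samples alone, and with no filter both were called at day 3 too. The call of Anxa9 was lost without day 3 replicate 4 (0.48). S100a16, at 0.32 and not called, was called without uninjured replicate 3 (0.445), on the common-sum scale (1.13) and on own totals of reads (0.98).

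S100a1, the S100 protein of striated muscle that binds the ryanodine receptor and the calcium pump of the sarcoplasmic reticulum, went the other way. It was at 434, 281, 435, 331 and 298 FPKM in uninjured muscle, above each of the 10 members, and at 168, 192, 123, 100.997 and 209 FPKM at day 3. All 5 day 3 samples and all 6 day 7 samples, which were at 109 to 246 FPKM, lay below the lowest uninjured sample. S100a1 fell by 1.19 ± 0.26 on the log2 scale at day 3 (adjusted p = 0.000726) and by 1.04 ± 0.25 at day 7 (adjusted p = 0.00348), and both calls were lost on the common-sum scale, where it was at -0.36 and -0.32. At day 14 and day 21 it was at 146 to 397 and 293 to 373 FPKM, overlapping the uninjured samples. From day 3 to day 21 it rose by 1.09 ± 0.26 (adjusted p = 0.00347, limma).

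At day 7, 3 of the 11 were called higher and S100a1 lower. Anxa4 rose by 1.54 ± 0.26 and Anxa7 by 0.98 ± 0.15, both above the uninjured range in 6 of 6 samples, and Anxa8 rose by 0.93 ± 0.26 (adjusted p = 0.0101, 5 of 6 samples). The limit given for day 3 holds here and at the later times too: Anxa8 and Anxa9 passed the filter through injured samples alone. Without both libraries that stand apart the 4 calls were kept, with Anxa4 at 1.42, Anxa7 at 0.96, Anxa8 at 0.92 and S100a1 at -0.92. S100a13, at 0.50, was called without day 14 replicate 1 (0.50), on the common-sum scale (1.20) and on own totals of reads (1.03). Anxa9, at 0.43, was called in 6 alternatives: a pseudocount of 0.1 (1.61), voom weights (2.69), the common sum (0.62), own totals (0.55), a replicate block by letter (0.49) and only the 2 groups compared (0.43). S100a16 and Anxa6, at -0.03 and -0.04 at day 7, flipped on the common-sum scale, to 0.69 and 0.68, and on own totals, to 0.51 and 0.50. At day 14, Anxa4 and Anxa7 were called higher, at 1.46 ± 0.26 (adjusted p = 0.000632, 6 of 6 samples above the uninjured range) and 0.76 ± 0.15 (0.00184, 6 of 6). S100a13 was called there without day 14 replicate 1 (0.67), on the common-sum scale (0.91) and on own totals (0.84), and Anxa8 without day 14 replicate 3 (0.79) or 4 (0.78) and with a pseudocount of 0.1 (1.98). At day 21, 0 of the 11 were called by limma and 5 had an unadjusted p below 0.05. Anxa4, at 0.81, and Anxa7, at 0.51, had an adjusted p of 0.0903 and 0.0732 there, and both were called at the same size (0.81 and 0.51) without day 7 replicate 6 and with only the 2 groups compared. With a replicate block by letter both were called too (1.02 and 0.61), with a block by number Anxa7 (0.51), with a pseudocount of 0.1 Anxa4 (1.09), and with only the 2 groups compared S100a13 (0.54). From day 3 to day 21 Anxa4 fell by 1.22 ± 0.27 (adjusted p = 0.00161) and Anxa6 by 0.52 ± 0.15 (0.0103), and S100a1 was the 1 of the 11 called higher. S100a13 and Anxa7 were called lower on the common-sum scale (-0.95 and -0.80) and on own totals (-0.795 and -0.65).

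**Figure D3:**
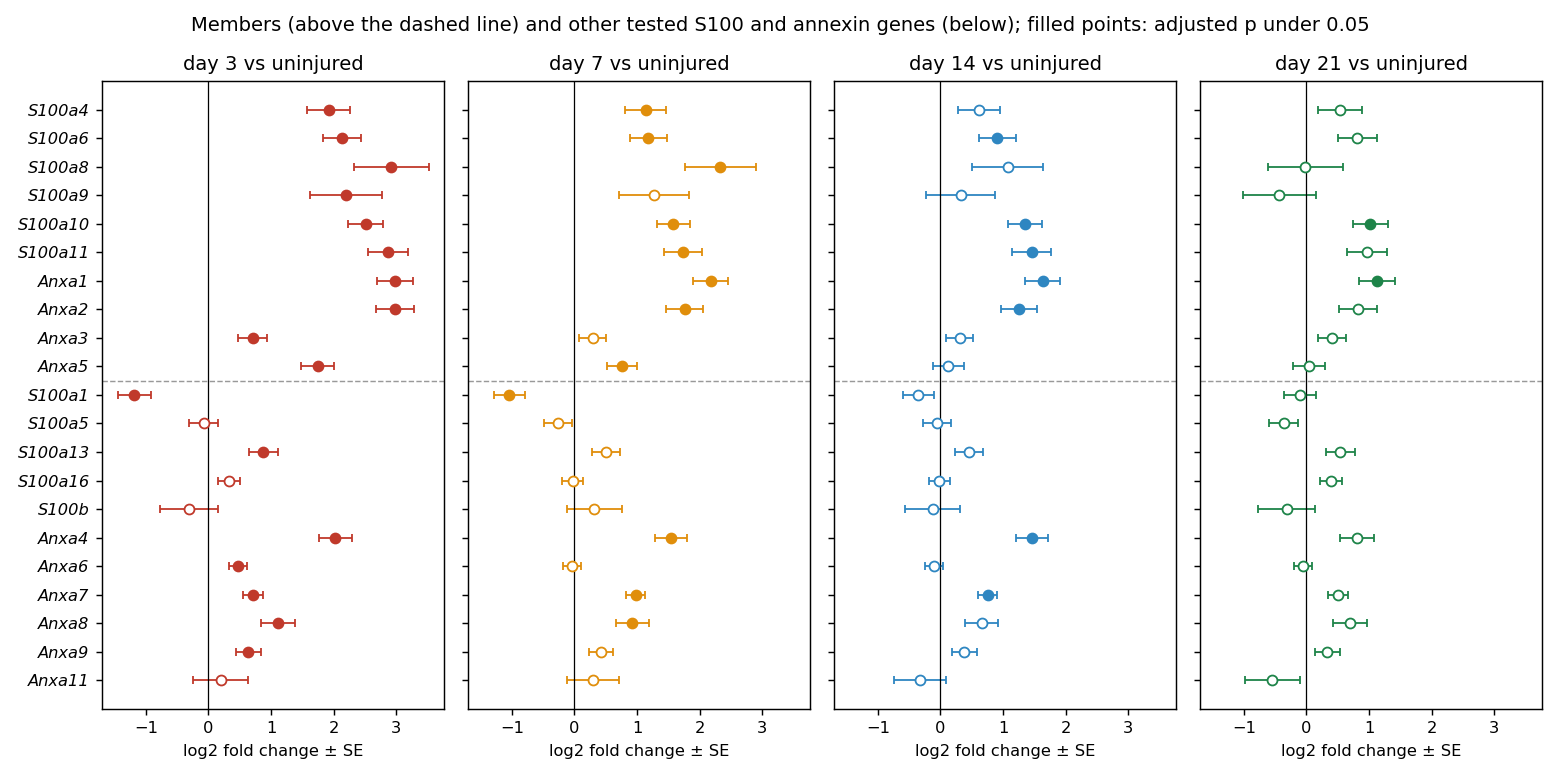
Log2 fold change against uninjured muscle with its standard error for the 10 members (above the dashed line) and the 11 other tested S100 and annexin genes (below it), with filled points for genes called by limma. S100a1, at -1.19 at day 3 and -1.04 at day 7, is the 1 gene called lower, and its calls are lost with FPKM rescaled to a common sum (-0.36 and -0.32).

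Partners and receptors were a list of 15 genes, of which 12 were tested. At day 3, 7 were called higher and 2 lower. The plasminogen activators and their receptor, which act with the annexin A2 and S100A10 complex at the cell surface, were all higher. Plaur, the receptor of urokinase, was at 0.287, 0.377, 0.716, 0.217 and 0.235 FPKM in uninjured muscle and at 5.86, 4.44, 8.70, 7.03 and 2.55 FPKM at day 3. It rose by 2.23 ± 0.38 in log2(FPKM + 1) (adjusted p = 5.81e-05, limma), with 5 of 5 samples above the uninjured range. At these uninjured levels the added 1 makes this smaller than the log2 ratio of FPKM. Plau rose by 1.35 ± 0.25 (adjusted p = 0.000152, 5 of 5 samples) and Plat by 0.67 ± 0.18 (0.00472, 5 of 5), whereas Plg, the plasminogen gene, was at 0 in all 5 uninjured samples and at most at 0.0897 FPKM in any sample.

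The intracellular partners Myh9, a non-muscle myosin bound by S100A4, and Ahnak, a scaffold of the annexin A2 complex, rose by 1.23 ± 0.29 (adjusted p = 0.00141, 5 of 5 samples) and 0.54 ± 0.13 (0.00197, 5 of 5) at day 3. Of the receptors of secreted S100 proteins, Tlr4 rose by 0.82 ± 0.20 in log2(FPKM + 1) (adjusted p = 0.00184, limma, 5 of 5 samples). Its uninjured mean was 0.201 FPKM, so the added 1 makes this smaller than the log2 ratio of FPKM. All 5 uninjured samples of Tlr4 were below 0.5 FPKM, so it passed the filter through injured samples alone, and with no filter it was called at day 3 too. Ager rose by 0.48 ± 0.18 (0.0362, 4 of 5). The call of Ager was lost without uninjured replicate 1 (0.415), 2 (0.446) or 4 (0.48), or without day 3 replicate 1 (0.49), 3 (0.447), 4 (0.436) or 5 (0.46), or with no filter (0.48). Cd36 fell by 0.76 ± 0.18 (adjusted p = 0.00129, below the uninjured range in 5 of 5 samples) and Bsg by 0.85 ± 0.25 (0.009, 5 of 5), both calls lost with FPKM rescaled to a common sum, where Cd36 flipped to 0.05 and Bsg was at -0.02, and on own totals of reads (-0.11 and -0.18). The annexin A1 receptor genes Fpr1 and Fpr2 were too low to be tested: both were at 0 in all 5 uninjured samples and at 0.145 to 0.344 and 0.145 to 0.508 FPKM in the day 3 samples. The membrane repair genes Dysf and Trim72, at 0.21 and 0.31, and the S100A6 partner Cacybp, at -0.10, were not called at day 3. On the common-sum scale and on own totals all 3 were called higher, Dysf at 0.95 and 0.81, Trim72 at 1.12 and 0.96, and Cacybp, whose sign flipped, at 0.69 and 0.54.

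At day 7, 6 of the 12 partners were called higher and Cd36 lower (-0.99 ± 0.17, below the uninjured range in 6 of 6 samples). Plaur rose by 1.36 ± 0.36 (adjusted p = 0.00706, 6 of 6 samples above the uninjured range) and Ahnak by 0.54 ± 0.13 (0.0032, 6 of 6), and both were called without both libraries that stand apart (0.98 and 0.49). The calls of the other 4 depended on single libraries, and all 4 were lost with no filter. Tlr4, at 0.57, was not called without uninjured replicate 1 (0.51), 2 (0.56) or 4 (0.56), or day 7 replicate 1 (0.49), 4 (0.515) or 5 (0.448). Plat, at 0.53, was not called without uninjured replicate 3 (0.48) or 5 (0.434) or day 7 replicate 5 (0.45), and Plau, at 0.74, not without uninjured replicate 3 (0.66) or day 7 replicate 5 (0.535). Myh9, at 0.76, was not called without any 1 of the 5 uninjured replicates (0.67 to 0.80) or without day 7 replicate 1 (0.66), 2 (0.77), 4 (0.67) or 5 (0.57). With only the 2 groups compared Tlr4, Plau and Myh9 were not called. Bsg was called lower without day 7 replicate 3 (-0.76) or 6 (-0.71) and with a replicate block by number (-0.69) or by letter (-0.68), and Ager was called higher on the common-sum scale (0.56). Dysf, at -0.03, flipped and was called on the common-sum scale (0.63) and on own totals (0.465). The count of partners called was 7, with 4 without uninjured replicate 3, 3 without day 7 replicate 5 and 3 without both libraries that stand apart.

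At day 14 and day 21, Cd36 was the 1 partner called, at -0.80 ± 0.17 (adjusted p = 0.00278, below the uninjured range in 6 of 6 samples) and -0.91 ± 0.18 (0.00594, 5 of 5). With FPKM rescaled to a common sum these calls were lost, at -0.325 and -0.715, as was that of day 7 (-0.275), and on own totals they were lost too (-0.40, -0.72 and -0.446). At day 14 further partners were called when 1 library was left out: Bsg without day 7 replicate 3 (-0.63) or day 14 replicate 6 (-0.72), Plaur without day 7 replicate 5 (0.76), Myh9 without day 7 replicate 3 or 5 (both 0.70), and Ahnak without any 1 of day 7 replicates 2, 4, 5 and 6, day 14 replicates 2, 3 and 6 and day 21 replicate 5 (0.35 to 0.40). With a replicate block by number or by letter Bsg (-0.74 and -0.73) and Myh9 (0.77 and 0.76) were called at day 14, and with only the 2 groups compared Bsg, Myh9, Plau (0.42) and Plaur (0.76). Ahnak was called there with a pseudocount of 0.1 (0.38), on the common-sum scale (0.77), on own totals (0.70) and without both libraries that stand apart, as was Plaur, and Dysf on own totals (0.59). At day 21 Ahnak was called with only the 2 groups compared (0.34). From day 3 to day 21, 5 partners were called lower and Bsg higher. Plaur fell by 1.72 ± 0.38 (adjusted p = 0.00167), Plau by 1.16 ± 0.25 (0.0015) and Plat by 0.70 ± 0.18 (0.00671). Myh9, at -0.99 ± 0.29, was not called without day 3 replicate 4 (-0.865), and Tlr4, at -0.59 ± 0.20, not without any 1 of day 3 replicates 1, 3 and 4 and day 21 replicates 1, 2 and 5 (-0.59 to -0.455), nor with a pseudocount of 0.1 (-1.25), no filter (-0.59), voom weights (-1.44) or a replicate block by letter (-0.51). Bsg, at 0.69 ± 0.25, lost its call without any 1 of the 5 uninjured, 5 day 3 or 5 day 21 samples, day 7 replicate 2 or day 14 replicate 3 or 4 (0.59 to 0.73). It also lost it on the common-sum scale (0.06) and on own totals (0.22), with a replicate block by letter (0.52) and with no filter (0.69). On the common-sum scale and on own totals Cd36 (-0.76 and -0.605), Ahnak (-0.78 and -0.63), Cacybp (-0.87 and -0.72) and Trim72 (-1.16 and -1.01) were called lower. Without day 3 replicate 4 the count of partners called was 3.

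Lists of cell type markers were followed over the same days. Of 7 monocyte and macrophage markers, limma called 7 higher on day 3, 6 on day 7, 2 on day 14 and 0 on day 21, the last with 0 at an unadjusted p below 0.05. Adgre1, Ccr2 and Ly6c2 were below 0.5 FPKM in all 5 uninjured samples and passed the filter through injured samples alone, and with no filter 7, 6, 0 and 0 of the 7 were called. Their summed FPKM was 17.6, 23.6, 16.9, 21.97 and 24.9 in uninjured muscle and 1412, 996, 1967, 2139.9 and 315 at day 3, with Lyz2 the most abundant gene. At day 7 it was 254, 256, 124, 411, 2009 and 45.7, at day 14 it was 92.5, 102, 44.1, 83.5, 102 and 54.5, and at day 21 it was 45.6, 57.1, 50.4, 31.7 and 41.4. The highest sum at day 7 was in replicate 5, which also had the highest level of each member at day 7, and the lowest at day 3 was in replicate 5. Their part in the levels of the members was not tested.

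Of 8 neutrophil markers 1, Csf3r, was abundant enough to be tested, and it was called higher at day 3 and day 7. The summed FPKM of the 8 was 0.525, 0.520, 0, 0.567 and 0.227 in uninjured muscle and 6.10, 3.06, 6.40, 6.85 and 2.29 at day 3, with Csf3r the most abundant. At day 7 it was 1.47, 0.790, 0.575, 3.69, 12.3 and 0.582, at day 14 it was 0.898, 0.755, 1.35, 0.891, 1.78 and 0.998, and at day 21 it was 0.552, 0.488, 0.313, 0.129 and 0.298. The defining marker Ly6g was at 0 in 26 of the 27 samples and at 0.0509 FPKM in day 3 replicate 1. The other defining genes Mmp8, Camp and Ngp were at 0 in all 5 uninjured samples. Over the 27 samples, Mmp8 and Retnlg were at 0.5 FPKM or more in 3 each, Ngp in 1, and Camp, Ltf and Cxcr2 in 0. Csf3r was at 0.5 FPKM or more in 13 of the 27 samples and in 0 of the 5 uninjured ones, so it passed the filter through injured samples alone, and with no filter its call was kept at day 3 (1.93) and lost at day 7 (1.06, adjusted p = 0.0745).

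Of 5 fibroblast markers, led by Col1a1, 4 were called higher at day 3, day 7 and day 14 and 1 at day 21, with median sums of 85.2 FPKM in uninjured muscle and 386, 387, 281 and 149.6 FPKM at the 4 times. Of 6 muscle fibre markers, led by Acta1, 5 were called lower on day 3, 3 on day 7, 1 on day 14 and, by limma, 0 on day 21 (also 0 at an unadjusted p below 0.05). Their median sum was 73338 FPKM in uninjured muscle, which bears out the labelled tissue, and 37282, 41327, 51022 and 61123 FPKM at the 4 times after injury. On the common-sum scale these medians were 52140 in uninjured muscle and 44734, 50974, 57356 and 61151 after injury, and with a common sum 2, 0, 0 and 0 of the 6 were called lower (3, 0, 0 and 0 on own totals of reads). Of 4 myoblast markers, led by Myog, 3 were called higher at day 3 and 2 at each later time, and of 4 endothelial markers, led by Cdh5, 2 were called lower at day 3 and 1 at each later time. Of 4 keratinocyte markers, which would show skin in the sample, Krt10 was the 1 that was tested and was not called, and Krt5 and Krt14 were above 0 in 1 sample, day 3 replicate 3, at 0.828 and 0.280 FPKM, whereas Krt1 was at 0 in all 27 samples. With no filter, 3 muscle fibre markers were called lower at day 3 and 0 at each later time, and at day 21 1 myoblast marker and 0 fibroblast markers were called higher. On the common-sum scale 5, 5, 4 and 0 fibroblast markers and 4, 3, 2 and 0 myoblast markers were called higher at the 4 times (5, 5, 4, 0 and 4, 2, 2, 1 on own totals), and of the endothelial markers 1 was called lower at day 3 and day 7 and 0 later on both scales, with 1 called higher at day 3 and day 7 on the common-sum scale. The monocyte, macrophage and neutrophil counts were the same on both scales. The part of these cells in the results was not tested.

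**Figure D4:**
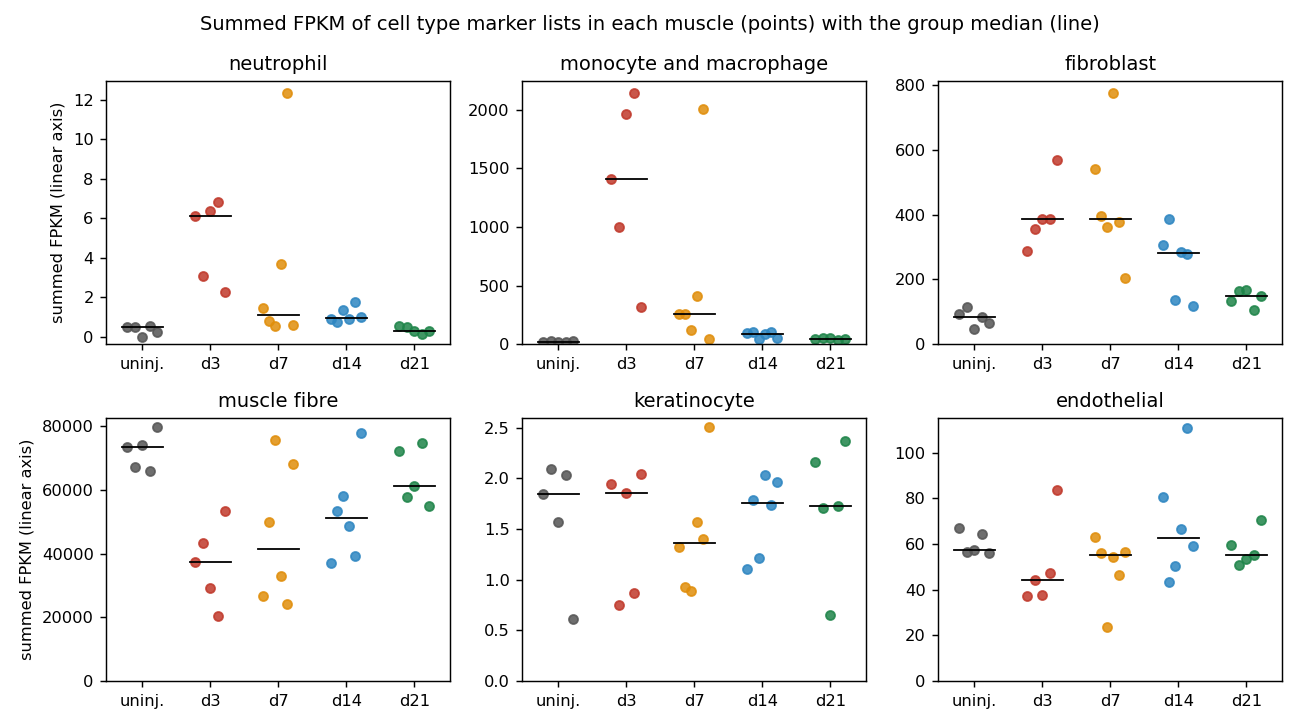
Summed FPKM of 6 lists of cell type markers in each muscle (points, linear axes) with the group median (line). The monocyte and macrophage sums have medians of 21.97 in uninjured muscle and 1412 at day 3, and day 7 replicate 5 stands at 2009 among day 7 samples of 45.7 to 411.

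Since several members rose together, their promoters were searched for the letters of 5 motifs on both strands. RefSeq windows from 250 bases before to 50 bases after the gene start, in build GRCm38.p6, were found for 8 of the 10 members, and S100a10 and Anxa3 had none in the table. TGANTCA, the letters of AP-1, was in 7.81% of the 32851 windows of all genes and in 2 of the 8 member windows, S100a11 and Anxa2. TTGCNNAA, for C/EBP, was in 10.8% of all windows and in 2 of the 8 (Anxa1 and S100a9), and GAGGAAG, for PU.1, was in 13.6% and in 2 of the 8 (S100a4 and S100a8). GGGCGG, for Sp1, was in 35.7% and in 3 of the 8 (Anxa2, S100a11 and S100a9), and TATAAA, the TATA box, was in 13.6% and in 5 of the 8 (Anxa1, Anxa2, S100a4, S100a8 and S100a9). No AP-1 match shared a base with a match of the other motifs in these windows. A match describes the letters alone, and no factor's binding was measured.

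The S100a11 and Anxa2 segments upstream of the gene are shown because these members rose together at day 3, day 7 and day 14 and both hold the AP-1 letters. They are from RefSeq, build GRCm38.p6, 5′ to 3′ on the + strand, which is the strand of both genes, with the AP-1 matches in capitals. The S100a11 segment, chr3:93520330-93520487, has 158 bases and 2 matches, which begin at positions -136 and -38 from the RefSeq start. The Anxa2 segment, chr9:69453558-69453619, has 62 bases and 1 match, which begins at position -95 from the RefSeq start. Both segments end 1 base before the start of the gene in the deposited table.
S100a11: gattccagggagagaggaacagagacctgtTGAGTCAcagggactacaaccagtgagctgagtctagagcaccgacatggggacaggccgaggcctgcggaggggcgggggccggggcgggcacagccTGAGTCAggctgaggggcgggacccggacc
Anxa2: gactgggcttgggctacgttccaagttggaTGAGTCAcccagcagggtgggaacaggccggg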

How the data were processed

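The authors deposited one table of FPKM per gene for 27 samples of bulk RNA, with gene lengths. The submitters' processing notes name HISAT2 2.0.5 and featureCounts 1.5.0-p3, and the libraries were non-directional, so overlapping genes on opposite strands cannot be separated. Reads were recovered as FPKM times gene length divided by the value of 1 read in each sample and came out whole within 0.1 reads. Depth was 14376395 to 24436763 reads per sample (median 17398586), and the deposited denominators were 0.747 to 1.48 times these totals, equal to median-ratio scaling within 2.66e-08 percent. Genes at 0.5 FPKM or more in 5 or more samples (14630 of 54532) were fitted as log2(FPKM + 1) with a mean per group and a variance trend in limma 3.58.1 (R 4.3.3), with Benjamini-Hochberg adjustment over all of them and a threshold of 0.05. Tables and figures used Python 3.11.15, pandas 2.3.3, numpy 2.4.6 and matplotlib 3.10.9. The fit was checked on simulated data. Samples were grouped by their labels, and none was left out. The members, the lists and the pair of libraries left out together were chosen with earlier results of these data known. The genes named were the members, the called and most abundant genes of the lists of relatives, partners and cell markers, and the 2 genes most like each member in profile. The alternatives were a pseudocount of 0.1, no filter, FPKM rescaled to a common sum, median-ratio scaling, each sample's own total of reads, voom weights, a replicate block by number or by letter, only the 2 groups compared, leaving out both libraries that stand apart, and leaving out each of the 27 libraries in turn.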

Additional observations from a re-analysis of the deposited data

Results flagged for a closer look

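In 5 of 50 groups of samples, 1 for each member and group, the highest sample lay farther from the next than Dixon's 95% critical value allows on the log2(FPKM + 1) scale. Chance flags about 1 in 20 groups where values are not tied. In day 7 replicate 5, S100a9 was at 41.63 FPKM, Anxa1 at 55.53 FPKM and Anxa2 at 143.7 FPKM, each far above the other 5 day 7 samples. In uninjured replicate 3, S100a4 was at 0.7297 FPKM where the other 4 uninjured samples were at 0, so that any value above 0 would stand out and the chance rate does not apply. In uninjured replicate 1, S100a11 was at 56.86 FPKM, above the other 4 uninjured samples. The causes were not tested.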

How the results depend on the processing

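Over 37 alternatives, member log2 fold changes kept their side of the threshold in 1804 cases, lost the call in 29 and gained it in 17, and no called member turned its direction. Members that were not called did so at day 21: S100a8, at -0.02, ranged from -0.62 to 0.19, and Anxa5, at 0.04, was -0.03 without uninjured replicate 5. The common-sum and own-total scalings moved the median of all genes in the direction of the member calls. They could therefore not turn a called member. The 10 members were called higher at day 3, and 9 lower at day 21 against day 3, without any 1 of the 27 libraries. Over all genes, those fits called 5225 to 6511 and 2256 to 4065 in either direction. With all libraries, 23.4% of genes were called higher at day 3 and 16.2% lower at day 21 against day 3. Since the members were chosen with these comparisons known, nothing is read from their counts.

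Median-ratio scaling gave the same values as the deposited scale. With FPKM rescaled to a common sum, 6665 genes were called at day 7 (4296 as reported), 1752 at day 14 (2969) and 45 at day 21 (502), other family genes 7 at day 7 (4) and 5 at day 21 against day 3 (3), members 0 and partners 0 at day 21 (2 and 1). With own totals of reads, other family genes numbered 8 at day 7 and 5 at day 21 against day 3, partners 2 at day 14 (1) and 0 at day 21, and at day 21 129 genes and 0 members were called. The share of called genes that were higher was 54.1%, 51.0%, 44.5%, 50.8% and 36.2% in the 5 comparisons as reported (day 3, 7, 14, 21, and day 21 against day 3), 95.7%, 96.9%, 93.9%, 88.9% and 3.21% with a common sum, and 91.5%, 92.8%, 88.8%, 80.6% and 6.32% with own totals. Directions reversed with a common sum and with own totals for Cacybp at day 3 (0.694 and 0.539), S100a16 (0.685 and 0.513), Anxa6 (0.677 and 0.504) and Dysf (0.627 and 0.465) at day 7, and with a common sum for Cd36 at day 3 (0.0459). The cause was not tested.

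With a pseudocount of 0.1, partners called at day 14 numbered 2 and other family genes at day 21 numbered 1 (0). With no filter, partners at day 7 numbered 3 (7), and at day 21 247 genes and 0 members were called. With voom weights, 282 genes and 1 member were called at day 21. With a replicate block by number, partners at day 14 numbered 3, and at day 21 795 genes and 1 other family gene were called. With a replicate block by letter, partners at day 14 numbered 3, and at day 21 1233 genes and 2 other family genes were called. With only the 2 groups compared, partners numbered 4 (day 7), 5 (day 14) and 2 (day 21), and 1477 genes, 5 members and 3 other family genes were called at day 21. Without both libraries that stand apart, partners numbered 3 at day 7 and 3 at day 14, and members 4 at day 21. The cause was not tested. For samples of the same replicate number in different groups, r of their residuals was -0.521 to 0.566 over 51 pairs (median -0.003, against 0.003 for other pairs), and 15 were above 0.1. By letter, the median was 0.020 over 49 pairs, against 0.001 for other pairs. By number and by letter, 11 samples were most like one of their own set, where chance gives 4.73 and 4.55. Whether numbers or letters mark samples that share a mouse or a batch is not settled.

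Leaving out 1 library at a time, genes called ranged over 5225 to 6511 (day 3), 3257 to 5226 (day 7), 1896 to 3362 (day 14), 193 to 710 (day 21) and 2256 to 4065 (day 21 against day 3). Members called ranged over 10 to 10, 7 to 9, 4 to 5, 0 to 4 and 9 to 9, other family genes over 6 to 8, 4 to 5, 2 to 3, 0 to 2 and 3 to 3, and partners over 8 to 9, 3 to 8, 1 to 4, 1 to 1 and 3 to 6. Genes called at day 14 numbered 1896 without day 14 replicate 5, and at day 21 against day 3 2256 without day 3 replicate 4. Genes called at day 21 numbered 307, 300, 219 and 228 without uninjured replicates 1, 2, 4 and 5, and 266 and 193 without day 21 replicates 1 and 2. Members called at day 21 numbered 0 without uninjured replicate 3, 4 or 5 or day 21 replicate 1, 2 or 5, 1 without uninjured replicate 1 and 4 without day 7 replicate 5. Other family genes at day 21 numbered 2 without day 7 replicate 6.

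Depth limits S100a4, S100a8 and S100a9 most, which had 0 to 17 reads per uninjured sample. The members were chosen with results known, the control samples are shared, and the legs injured are not settled, and all samples are treated as independent. Cell composition and expression per cell cannot be told apart in whole muscle.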

Other observations

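S100b, known from Schwann cells and adipocytes, was at 0.109 to 1.95 FPKM in uninjured muscle and at 15.9 FPKM in day 7 replicate 6, against 0.251 to 2.61 FPKM in the other 5 day 7 samples.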
